A study of Mus musculus with 23 samples.

Results

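BCL6 is a transcriptional repressor, and the genes described here are Bcl6 itself, its relative Bcl6b, the corepressor genes Bcor, Ncor1 and Hdac3, the classical target Prdm1, and Lpp, the next protein-coding gene after Bcl6 on mouse chromosome 16. They were chosen by gene symbol, using probe sets that name a single gene. Of these 7 genes, 6 were measured by 8 probe sets, 3 of them for Lpp and 1 for each other gene, among 19938 genes with such a probe set. Ncor1 was not analysed here, since no single-gene probe set carried its symbol in the pairing table used.

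The 23 arrays came from dendritic cells sorted from digested mouse spleen, 1 population per array. Conventional type 1 cells (cDC1) were measured on 4 arrays from Bcl6 conditional knockout mice (cKO) and 3 from wild-type mice (WT), conventional type 2 cells (cDC2) on 5 cKO and 3 WT arrays, and plasmacytoid cells (pDC) on 5 cKO and 3 WT arrays. The sources used here do not give the Cre driver, the deleted exons, the strain, age or treatment of the mice, or any pooling of animals. Whether the arrays of a group stand for different animals is also left unsaid in the labels, so each p-value measures only the spread between these samples.

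As background, BCL6 binds DNA through zinc fingers and recruits corepressors through its BTB (POZ) domain, which holds BCOR or the NCOR1 complex that carries the histone deacetylase HDAC3. In B cells BCL6 and BLIMP1, the product of Prdm1, repress each other, and this switch separates germinal centre cells from plasma cells. BCL6 also represses its own gene. Lpp encodes a LIM-domain protein of the zyxin family found at focal adhesions, and the distal regulatory region of Bcl6 described in B cells lies between the Bcl6 and Lpp genes, a stretch where human lymphomas carry translocations.

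The promoters of the neighbouring pair are shown because Bcl6 and Lpp lie side by side and because sites for BCL6 in the Bcl6 promoter are part of the known autoregulation. The sequences are RefSeq windows of 250 bases that end just before an annotated start (build GRCm38.p6), written 5′ to 3′ on the strand of the gene. Capitals mark matches to TTCNNNGAA, the palindromic core that BCL6 and STAT sites share, which reads alike on both strands.
Bcl6 window 1, chr16:23988853-23989102, minus strand: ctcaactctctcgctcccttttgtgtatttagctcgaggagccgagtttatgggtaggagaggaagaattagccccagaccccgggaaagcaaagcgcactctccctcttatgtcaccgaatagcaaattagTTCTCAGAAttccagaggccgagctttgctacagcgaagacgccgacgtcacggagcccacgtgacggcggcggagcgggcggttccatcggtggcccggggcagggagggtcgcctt
Bcl6 window 2, chr16:23981284-23981533, minus strand: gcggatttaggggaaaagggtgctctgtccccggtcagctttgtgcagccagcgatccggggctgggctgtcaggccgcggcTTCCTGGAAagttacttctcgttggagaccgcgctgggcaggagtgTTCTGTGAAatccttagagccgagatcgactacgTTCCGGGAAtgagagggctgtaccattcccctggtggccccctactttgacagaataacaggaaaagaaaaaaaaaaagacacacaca
Lpp window 2, chr16:24721605-24721854, plus strand: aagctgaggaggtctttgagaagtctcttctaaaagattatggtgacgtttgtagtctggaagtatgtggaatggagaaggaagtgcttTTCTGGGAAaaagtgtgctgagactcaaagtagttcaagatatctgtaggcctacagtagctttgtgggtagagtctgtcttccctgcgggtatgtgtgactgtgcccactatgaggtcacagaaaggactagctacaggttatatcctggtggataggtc

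Bcl6 window 1 held 1 match, 118 bases before its start. Window 2 held 3 matches, at 168, 122 and 88 bases before its start. The first Lpp window held none and the second held 1, at 161 bases. The Prdm1 window held none, and both overlapping Bcor windows held the same match, TTCGGAGAA. Of 32851 mouse promoter windows of this length 7.02% held the core at least once, and 9 of them (0.0274%) held it 3 times or more. The cut of 3 equals the count in Bcl6 window 2, itself 1 of the 9, so this share is a description and no test. These matches describe letters only and show no binding.

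Values are log2 of the deposited intensity, and differences are taken between groups within a probe set. Levels of different probe sets were ranked or added to choose the brightest probe set, to name genes with the highest means and to sum markers. Such ranks and sums are descriptions. Array medians ran from 4.87 to 5.36 on this scale. By them the arrays were sorted into 3 sets, called A, B and C here, of 8, 6 and 9 arrays. In linear intensity a wide gap, from 34.287 to 38.861, set C apart. Sets A and B were divided at a chosen cut of 31.3. The gap there, from 31.019 to 31.619, was narrower than some gaps within the sets. No label names the sets, and each holds arrays of all 6 groups, with WT replicate 1 in set A, 2 in B and 3 in C for every cell type. WT replicate 1 of each cell type also carried Xist, the transcript of the inactive X chromosome, at 10.9 to 11.9, against at most 5.07 on the remaining arrays. Each value given within a set thus rests on 1 WT array and few cKO arrays per cell type. In set A that WT array is the high-Xist one. The cDC1 and pDC arrays stood apart by their defining markers, whereas the cDC2 list did not part WT cDC2 from WT pDC by its sum. The summed linear intensity of 7 cDC1 markers was 6215 to 10030 on cDC1 arrays and 666 to 1900 elsewhere, and that of 6 pDC markers was 18416 to 30815 on pDC arrays and 804 to 2874 elsewhere. The 6 cDC2 markers summed to 3430 to 8489 on cDC2 arrays, 1997 to 4509 on pDC arrays and 204 to 1145 on cDC1 arrays. In WT alone the sum was 3430 to 4701 on cDC2 and 3241 to 4509 on pDC arrays. Of the 6 markers, Clec4a4 parted cDC2 from pDC most clearly in WT, at 7.55 in WT cDC2 and 3.15 in WT pDC, but averaged 4.83 in cKO cDC2. In such bulk samples, fewer cells of a type and less RNA per cell cannot be told apart.

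**Figure D1:**
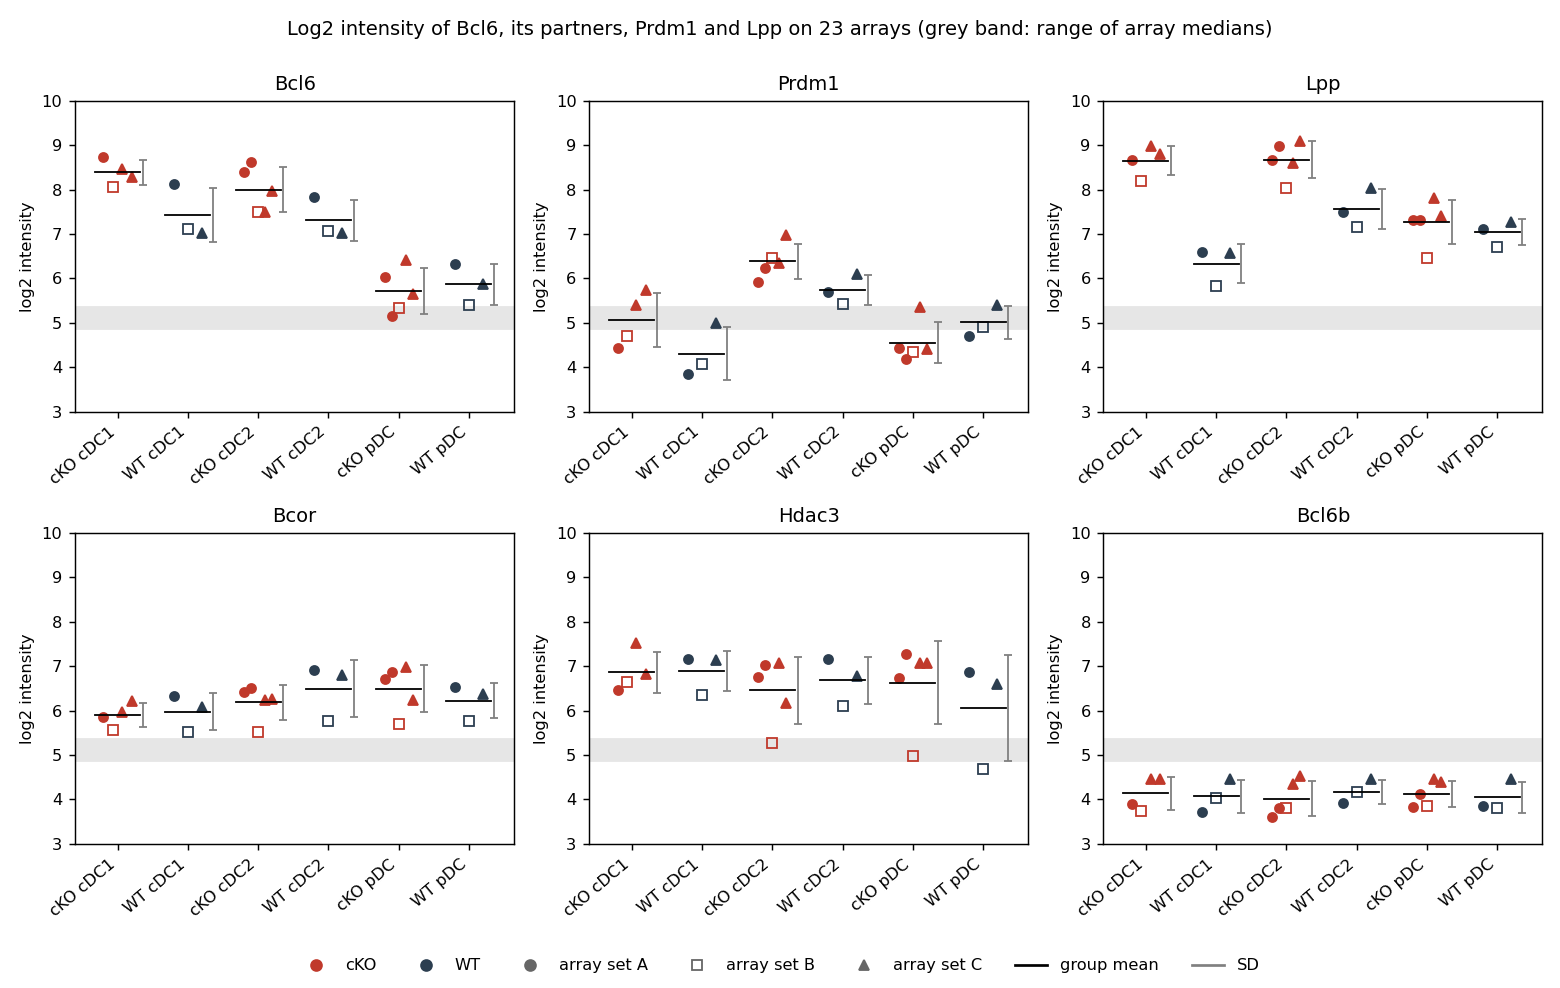
Log2 intensity (vertical axes) of 6 genes on 23 arrays, by group along the horizontal axis, 1 point per array, with group means (black lines), standard deviations (grey bars) and the range of array medians (grey band). Bcl6 is lowest in pDC of both genotypes, Prdm1 is highest in cDC2, Lpp is higher on every cKO cDC1 array than on every WT cDC1 array, and Bcl6b lies below the band on all arrays.

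The targeted gene was examined first. Bcl6 was measured by 1 probe set, whose exons may all have been kept in the knockout, so that it is no check of the deletion and the genotypes rest on the labels. On cKO cDC1 arrays 1 to 4 it read 8.74, 8.06, 8.46 and 8.29, against 8.12, 7.12 and 7.02 on WT cDC1 arrays 1 to 3. In cDC2 it read 8.40, 8.61, 7.51, 7.51 and 7.97 on cKO arrays and 7.83, 7.06 and 7.02 on WT arrays. In pDC it read 6.03, 5.15, 5.34, 6.42 and 5.65 on cKO arrays and 6.33, 5.40 and 5.88 on WT arrays. The genotypes overlapped in every cell type, in cDC1 and in cDC2 only through the high WT array 1. In both cell types that array is the high-Xist one. No group labelled cKO read below its WT group by more than the spread.

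Bcl6 therefore did not pass in any cell type. The cKO minus WT difference was 0.97 ± 0.35 in cDC1 (log2, SE, n = 4 cKO and 3 WT; limma adjusted p = 0.598), with a 95% interval of 0.25 to 1.68. It was 0.69 ± 0.33 in cDC2 (n = 5 and 3, limma adjusted p = 0.756), with a 95% interval of 0.006 to 1.38. In pDC it was −0.15 ± 0.33 (n = 5 and 3, limma adjusted p = 1). Set A gave a cDC1 difference of 0.62, set B 0.93 and set C 1.35. With each of the 23 arrays left out in turn the cDC1 difference lay between 0.766 and 1.315, with an adjusted p of 0.202 or more in limma. It came nearest to passing with the 3 array sets as a term (0.974, limma adjusted p = 0.0622). The difference was 1.315 without the high-Xist arrays (limma adjusted p = 0.149) and 0.826 with array weights (0.191).

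Between cell types Bcl6 was higher in cDC1 and cDC2 than in pDC, in cKO and in WT. It averaged 8.39 ± 0.29 in cKO cDC1, 8.0 ± 0.51 in cKO cDC2 and 5.72 ± 0.52 in cKO pDC, and 7.42 ± 0.61, 7.31 ± 0.46 and 5.87 ± 0.47 in WT cDC1, cDC2 and pDC (SD). Among neighbours in the order of the 6 group means, ranges overlapped everywhere except between WT cDC2 and WT pDC, which lay 1.44 apart. Among cKO arrays cDC1 exceeded pDC 6.36-fold (2.67 ± 0.31, SE; limma adjusted p = 4.13e-07) and cDC2 exceeded pDC 4.85-fold (2.28 ± 0.29; limma adjusted p = 1.72e-06). Among WT arrays cDC1 exceeded pDC 2.94-fold (1.56 ± 0.37; limma adjusted p = 0.00473) and cDC2 exceeded pDC 2.71-fold (1.44 ± 0.37; limma adjusted p = 0.00969). Between cDC1 and cDC2 the difference was 0.39 ± 0.30 in cKO and 0.12 ± 0.37 in WT, neither past the threshold.

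The Bcl6 differences kept their side within each array set. The cDC1 minus pDC difference was 3.15, 2.72 and 2.34 in sets A, B and C among cKO arrays and 1.79, 1.73 and 1.15 among WT arrays. For cDC2 minus pDC the values were 2.91, 2.17 and 1.70 among cKO arrays and 1.5, 1.67 and 1.15 among WT arrays. In WT the call for cDC1 against pDC ended without WT cDC1 array 1 (1.205, limma adjusted p = 0.0507), and that for cDC2 against pDC without WT cDC2 array 1 (1.18, 0.0761) or WT pDC array 2 (1.2, 0.0602) and with array weights (1.30, 0.0673). The summed intensity of B cell markers, a lineage in which Bcl6 is known to be active, was 203 to 352 on cKO cDC1, 170 to 294 on cKO cDC2 and 439 to 886 on cKO pDC arrays. On WT arrays it was 278 to 566 in cDC1, 239 to 359 in cDC2 and 486 to 851 in pDC, so the WT cDC1 and WT pDC ranges overlapped. Their part in the result was not tested.

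Lpp was the 1 gene called between the genotypes. All 3 of its probe sets were higher on every cKO cDC1 array than on every WT cDC1 array. By the brightest probe set, 10434782, which stands for the gene, Lpp read 8.66, 8.19, 8.97 and 8.80 on cKO cDC1 arrays, against 6.60, 5.83 and 6.57 on WT cDC1 arrays. The groups were parted by a gap of more than 1 log2 unit. The group means were 8.66 ± 0.33 in cKO cDC1 and 6.33 ± 0.43 in WT cDC1 (SD), a 5.00-fold rise (log2 2.32 ± 0.31, SE, n = 4 and 3; limma adjusted p = 5.65e-05).

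Lpp was the only one of the 5 genes tested to pass in cDC1, where 0.831% of the 12157 genes tested passed in either direction, and it had the 31st largest rise of them. An unadjusted p below 0.05 was found in cDC1 for 3 of the 5, Bcl6 (0.0108) and Prdm1 (0.0348) being the other 2. No share of all genes is given at an unadjusted p, here or below, so such counts cannot show enrichment. Of all genes tested, 2.94% had every cKO cDC1 array above every WT cDC1 array, and Lpp was 1 of them. Within sets A, B and C the rise was 2.06, 2.36 and 2.31, and with single arrays left out it lay between 2.07 and 2.48, called each time. The other probe sets gave larger values in a fit over 13364 probe sets. Probe set 10434802 read 7.93, 8.23, 8.65 and 8.96 on cKO and 5.60, 5.81 and 6.21 on WT cDC1 arrays (5.93-fold, 2.57 ± 0.48, SE; limma adjusted p = 0.00475). Probe set 10434806 read 8.90, 9.09, 9.19 and 9.19 on cKO and 6.14, 5.65 and 5.64 on WT cDC1 arrays (9.73-fold, 3.28 ± 0.47; limma adjusted p = 0.000176).

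In cDC2 the Lpp groups met at their edges. Probe set 10434782 read 8.67, 8.97, 8.04, 8.59 and 9.10 on cKO cDC2 arrays, against 7.49, 7.15 and 8.05 on WT cDC2 arrays. The lowest cKO array, replicate 3 of set B, lay at the level of the highest WT array, replicate 3 of set C. The difference was 1.11 ± 0.29 (SE, n = 5 and 3) and did not pass (limma adjusted p = 0.0604), where 1.56% of genes passed, none of them among the 5 tested here, of which 2 had an unadjusted p below 0.05 in limma. Within sets A, B and C it was 1.33, 0.89 and 0.80. It passed with median centring (1.07, limma adjusted p = 0.0403), quantile normalization (1.05, 0.00525), the array sets as a term with 2 (1.08, 0.0113) or 3 levels (1.02, 0.000101) and array weights (1.205, 0.00976). It also passed without WT cDC2 array 3 (1.36, 0.0434), cKO cDC2 array 3 (1.27, 0.0224), or cKO pDC array 3 (1.11, 0.029) or 4 (1.11, 0.0484). These were the 4 of 23 such runs that passed, and without WT cDC2 array 2 the limma adjusted p was 0.463 (0.907). The difference did not pass without the high-Xist arrays (1.08, limma adjusted p = 0.277) or with the mean of all probe sets (0.968, 0.135). Nor did it pass with the replicate number as a block (0.958, 0.128) or in the fit to the compared groups alone (1.11, 0.113). The other probe sets gave 0.66 ± 0.46 and 1.13 ± 0.45 (limma adjusted p = 1 and 0.477).

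In pDC the Lpp arrays of both genotypes mixed. Probe set 10434782 read 7.31, 7.32, 6.46, 7.82 and 7.41 on cKO pDC arrays and 7.12, 6.71 and 7.28 on WT pDC arrays, a difference of 0.22 ± 0.29 (SE; limma adjusted p = 1). The other probe sets lay on the opposite side, at −0.40 ± 0.46 and −0.55 ± 0.45 (limma adjusted p = 1 for each), the last with a low array, 4.6, in cKO pDC replicate 3. In pDC 0.0329% of genes passed, none of them among the 5, which also had no unadjusted p below 0.05 in limma.

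**Figure D2:**
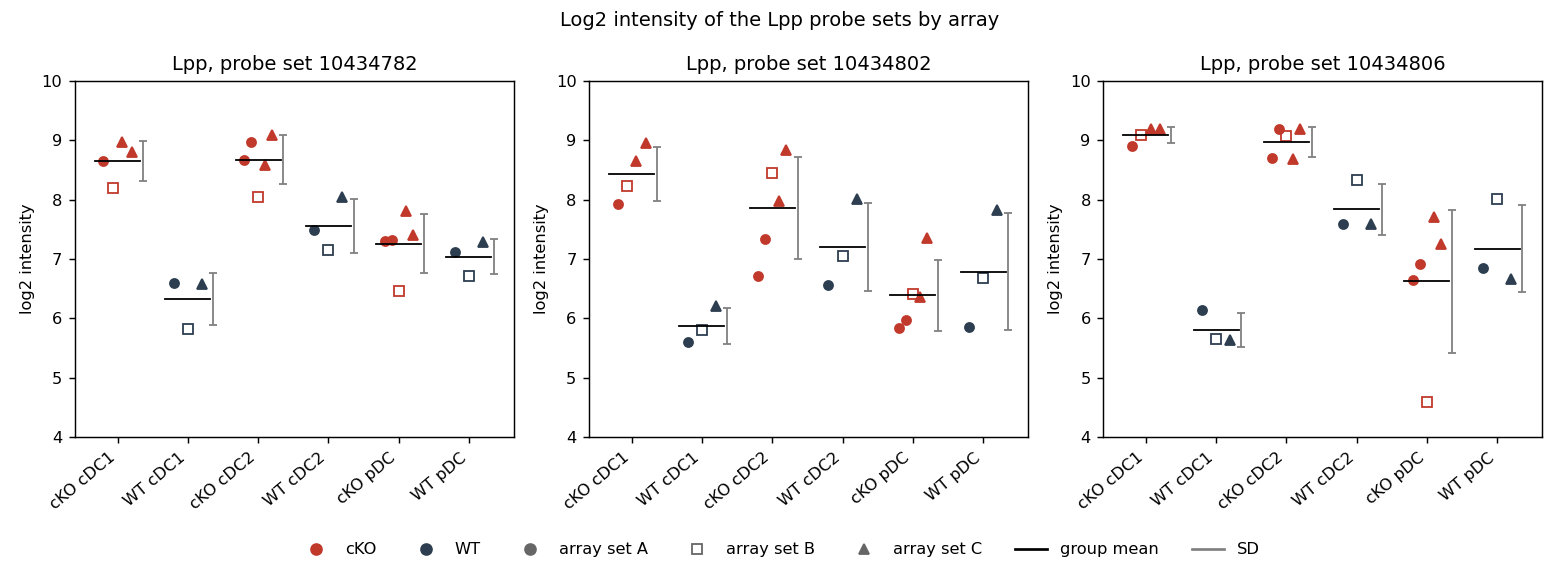
Log2 intensity (vertical axes) of the 3 Lpp probe sets on 23 arrays, by group along the horizontal axis, 1 point per array, with group means and standard deviations. In each panel the 4 cKO cDC1 arrays lie above the 3 WT cDC1 arrays, while cKO and WT pDC arrays overlap.

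The genotype effect on Lpp was larger in cDC1 than in pDC by 2.10 ± 0.43 log2 units (SE; limma adjusted p = 0.0219), a test that 0.329% of genes passed. Within sets A, B and C this difference of effects was 1.88, 2.62 and 1.98. The call ended with probe set 10434802 (2.96, 0.0553) and without the high-Xist arrays (2.19, limma adjusted p = 0.119). It also ended without WT cDC1 array 2 (1.85, 0.132), cKO cDC1 array 3 (2.0, 0.0714) or 4 (2.05, 0.0565), or WT pDC array 1 (2.06, 0.0605) or 3 (1.98, 0.0902). Between cDC1 and cDC2 the effects differed by 1.21 ± 0.43 (limma adjusted p = 0.687) and between cDC2 and pDC by 0.89 ± 0.42 (limma adjusted p = 1), where 0.28% and 0.485% of genes passed. With the 3 array sets as a term both passed, at 1.22 (limma adjusted p = 0.00259) and 0.89 (limma adjusted p = 0.0232).

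Lpp also differed between cell types, in an order that was not the same in both genotypes. In WT, the level was 6.33 ± 0.43 in cDC1, 7.56 ± 0.45 in cDC2 and 7.04 ± 0.29 in pDC (SD, n = 3 each). Lpp was lower in WT cDC1 than in WT cDC2 by −1.23 ± 0.33 (SE; limma adjusted p = 0.023), with −0.90, −1.32 and −1.47 in sets A, B and C. That call ended without WT cDC1 array 2 (−0.98, limma adjusted p = 0.156), WT cDC2 array 1 (−1.26, 0.0574) or WT cDC2 array 3 (−0.99, 0.151), without the high-Xist arrays (−1.40, 0.0902), in the fit to the compared groups alone (−1.23, 0.0578) and with probe set 10434802 (−1.33, 0.173). The WT cDC1 minus pDC difference was −0.71 ± 0.33 (limma adjusted p = 0.197) and the WT cDC2 minus pDC difference 0.52 ± 0.33 (limma adjusted p = 0.414), neither past the threshold. The first passed with quantile normalization (−0.83, 0.0131), with the 3 array sets as a term (−0.71, 0.00191) and with the mean of all probe sets (−0.997, 0.0408), and the second with the 3 array sets as a term (0.52, 0.0184). In cKO, the level was 8.66 ± 0.33 in cDC1, 8.67 ± 0.41 in cDC2 and 7.26 ± 0.50 in pDC, and cDC1 did not differ detectably from cDC2 (−0.02 ± 0.27, 95% interval −0.58 to 0.54). Both exceeded pDC in cKO, cDC1 2.63-fold (1.40 ± 0.27; limma adjusted p = 0.000444) and cDC2 2.66-fold (1.41 ± 0.26; limma adjusted p = 0.000184).

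Some markers of cDC2 moved with Lpp in cKO cDC1. The summed intensity of the 6 cDC2 markers was 1009 to 1145 on cKO cDC1 arrays, against 204 to 260 on WT cDC1 arrays. Between these groups 3 of the 6 passed, where 0.814% of all genes rose, namely Sirpa (2.27), Cd209a (3.20) and Itgam (2.14). The other 3 did not: Clec4a4 averaged 2.93 in cKO and 3.13 in WT cDC1, Clec10a 3.89 and 3.54, and Irf4 5.36 and 5.40, against 8.41 for Irf4 in WT cDC2. Within cDC2, too, the list differed by genotype, with 3 of the 6 called higher and 1 lower in cKO, where 1.16% and 0.403% of genes were. Among 6 macrophage markers Adgre1, encoding the classical mouse macrophage antigen, rose as well in cDC1 (1.27, limma adjusted p = 0.0412), where 0.814% of genes did. The sum of the macrophage markers was 304 to 446 on cKO and 256 to 375 on WT cDC1 arrays. The part of either list in the Lpp result was not tested.

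Prdm1, the classical BCL6 target that encodes BLIMP1, was close to background in most groups, above its array's median on 12 of 23 arrays. It read 4.44, 4.70, 5.41 and 5.74 on cKO cDC1 arrays, against 3.86, 4.07 and 4.99 on WT cDC1 arrays. In cDC2 it read 5.91, 6.24, 6.45, 6.34 and 6.99 on cKO arrays and 5.69, 5.42 and 6.11 on WT arrays. In pDC it read 4.45, 4.20, 4.36, 5.36 and 4.42 on cKO arrays and 4.71, 4.91 and 5.41 on WT arrays. The genotypes overlapped in each cell type, and none of the WT cDC1 arrays exceeded its median.

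Prdm1 did not pass between genotypes. The cKO minus WT difference was 0.77 ± 0.34 in cDC1, 0.65 ± 0.33 in cDC2 and −0.45 ± 0.33 in pDC (log2, SE; limma adjusted p = 1, 0.836 and 1). Within sets A, B and C it was 0.58, 0.63 and 0.58 in cDC1, 0.39, 1.03 and 0.56 in cDC2, and −0.39, −0.55 and −0.52 in pDC. With array weights the cDC1 difference passed (1.27, limma adjusted p = 0.0144).

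Between cell types, Prdm1 had its highest mean in cDC2 in both genotypes. It averaged 5.07 ± 0.61 in cKO cDC1, 6.39 ± 0.39 in cKO cDC2 and 4.56 ± 0.46 in cKO pDC, and 4.31 ± 0.60, 5.74 ± 0.34 and 5.01 ± 0.36 in WT cDC1, cDC2 and pDC (SD). Every neighbouring pair in this order of means overlapped. In cKO, cDC1 was below cDC2 by −1.31 ± 0.30 (SE; limma adjusted p = 0.00471) and cDC2 was 3.56-fold above pDC (1.83 ± 0.28; limma adjusted p = 2.69e-05). In WT, cDC1 was below cDC2 by −1.43 ± 0.36 (limma adjusted p = 0.0154), with −1.83, −1.35 and −1.12 in sets A, B and C. The cDC1 minus pDC difference was 0.52 ± 0.30 in cKO and −0.70 ± 0.36 in WT (limma adjusted p = 0.271 and 0.264). In cKO it passed with array weights (1.03, 0.000732), and in WT with the array sets as a term of 2 (0.0295) or 3 levels (0.0187). The WT cDC2 minus pDC difference of 0.73 ± 0.36 did not pass (limma adjusted p = 0.246). It passed with the replicate number as a block (limma adjusted p = 0.0461), where WT arrays of 1 number also share an array set. It also passed with the array sets as a term of 2 (0.0246) or 3 levels (0.0155). The WT cDC1 call ended without WT cDC1 array 1 (−1.21, 0.11) or 2 (−1.32, 0.0743), WT cDC2 array 3 (−1.25, 0.0921) or the high-Xist arrays (−1.24, 0.21). Levels below the array median lie near background, which limits the size these differences can show.

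No difference of the corepressor genes passed between genotypes or cell types. BCOR is the BTB-bound scaffold of a variant Polycomb complex, and Bcor averaged 5.90 to 6.49 over the 6 groups. It read 5.85, 5.57, 5.96 and 6.22 on cKO cDC1 arrays and 6.32, 5.52 and 6.08 on WT cDC1 arrays. The cKO minus WT difference was −0.08 ± 0.33 in cDC1, −0.30 ± 0.31 in cDC2 and 0.27 ± 0.31 in pDC (SE; limma adjusted p = 1 for each), with 95% intervals within −0.95 and 0.92. Its largest difference between cell types was cKO cDC1 minus cKO pDC (−0.60 ± 0.29; limma adjusted p = 0.168), which passed without cKO pDC array 3 (−0.79, 0.0454), with array weights (−0.65, 0.00701) and with the 3 array sets as a term (−0.54, 0.00435). That term also called Bcor in WT cDC1 minus WT cDC2 (−0.52, 0.0448).

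HDAC3 is the deacetylase of the NCOR1 complex. Hdac3 read 6.47, 6.65, 7.52 and 6.82 on cKO cDC1 arrays and 7.17, 6.36 and 7.13 on WT cDC1 arrays. The difference was −0.02 ± 0.53 in cDC1, −0.23 ± 0.51 in cDC2 and 0.57 ± 0.51 in pDC (SE; limma adjusted p = 1 for each), with intervals as wide as −0.49 to 1.62 in pDC. Its lowest arrays were those of set B: 4.69 in WT pDC replicate 2, 4.99 in cKO pDC replicate 3 and 5.28 in cKO cDC2 replicate 3. The median over set B was 5.69, against 6.95 in set A and 7.07 in set C, and Bcor followed the sets too, with 5.63 in B, 6.51 in A and 6.24 in C. For both genes these set medians lay further apart than the cKO and WT means of any cell type. What the sets stand for is not known from the labels.

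Bcl6b, the closest relative of Bcl6, known from activated lymphocytes and endothelium, lay between 3.61 and 4.53 on the 23 arrays and above its array's median on none. It did not pass the filter and was not tested. In set C, 6 of 9 arrays carried exactly the same value, 4.45. The level cannot be told from background, and endothelial markers summed to 241 to 1032 over all arrays.

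**Figure D3:**
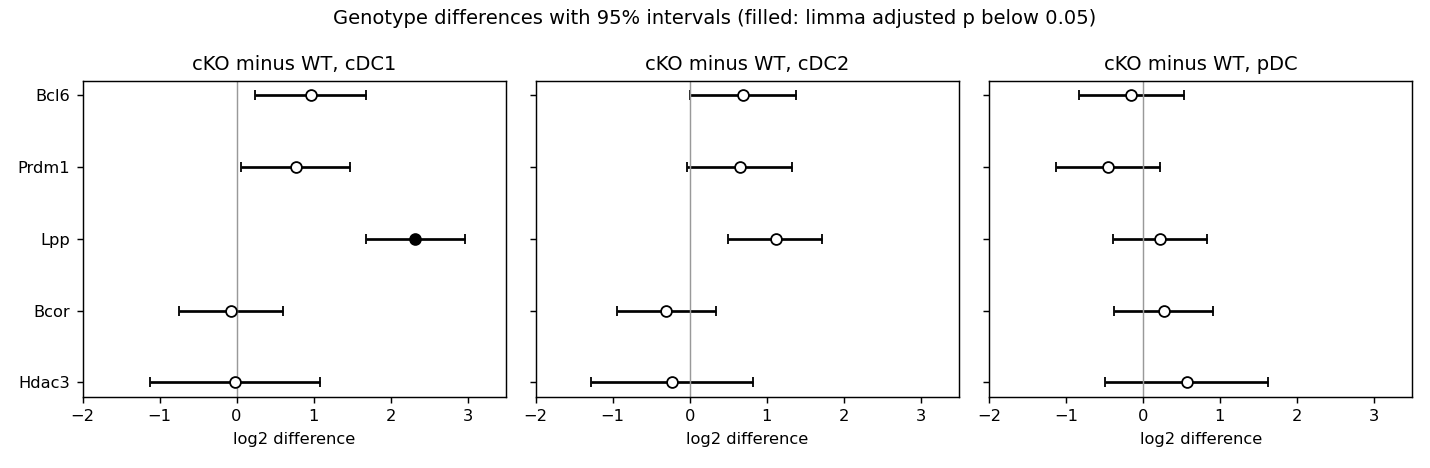
Log2 difference between cKO and WT (horizontal axes) for the 5 genes tested (rows), in cDC1, cDC2 and pDC panels, with 95% intervals from limma. The Lpp rise of 2.32 in cDC1 is the 1 difference that passed, and the Lpp interval in cDC2 lies above 0 without passing over all genes.

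In all, 1 of 15 genotype differences passed, 6 of 15 differences between cell types in cKO, 4 of 15 in WT, and 1 of 15 differences between genotype effects (6 with an unadjusted p below 0.05). The background in cKO was 8.95% of genes for cDC1 against cDC2, 20.4% for cDC1 against pDC and 20.8% for cDC2 against pDC. In WT it was 6.05%, 13.5% and 12.7% for the same pairs. The 6 cKO calls stood with each of the 23 arrays left out in turn.

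The wider corepressor machinery showed no genotype call. Of 22 listed genes of BCL6-associated complexes, 22 were tested, and none passed in cDC1, cDC2 or pDC (1, 2 and 0 with an unadjusted p below 0.05 in limma), with median differences of 0.04, 0.06 and 0.13 against 0.06, 0.07 and 0.05 over all genes. Those with the highest means were Skp1, Mta3, Tbl1xr1 and Ctbp1, encoding a subunit of BCOR-type and ubiquitin ligase complexes, a NuRD subunit, a subunit of the NCOR1 complex and a CtBP corepressor. Mta3, linked to BCL6 in B cells, averaged 9.18 in cKO and 8.97 in WT cDC1, 9.02 and 9.49 in cDC2, and 8.87 and 8.88 in pDC. Between WT cell types 1 of the 22 rose in cDC1 over pDC and 1 in cDC2 over pDC, where 13.5% and 12.7% of all genes passed. Both calls were of Ctbp2, another CtBP corepressor, named after its values were seen. It averaged 7.70 in WT cDC1, 6.95 in WT cDC2 and 5.59 in WT pDC, with cDC1 above pDC by 2.11 ± 0.26 (SE; limma adjusted p = 1.75e-06) and cDC2 above pDC by 1.36 ± 0.26 (limma adjusted p = 0.000537).

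Related gene families also gave no genotype call. Of 12 BTB zinc finger relatives, 12 were tested and none passed in any cell type (1, 2 and 0 with an unadjusted p below 0.05 in limma), the highest means being those of Zbtb20, Zbtb1, Bach1 and Patz1. Medians were 0.05 in cDC1, 0.18 in cDC2 and 0.07 in pDC. Of 10 genes around BLIMP1, such as the plasma cell factor Xbp1 and the class II regulator Ciita, none passed (0, 0 and 1 with an unadjusted p below 0.05 in limma), with medians of 0.09, 0.04 and 0.10, and Tle3 and Prdm2 were the other 2 with the highest means. Of 8 zyxin-family genes and partners of LPP 6 were tested and none passed (1, 0 and 0 with an unadjusted p below 0.05 in limma), although all 6 lay above 0 in cDC1, with a median of 0.26 against 0.06 over all genes. Zyx, which encodes zyxin, averaged 9.89 in cKO and 9.49 in WT cDC1, and Actn1, an actin crosslinker that LPP binds, 9.54 and 9.33, with Limd1 and Vasp next.

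Genes described as BCL6-repressed in B and T cells moved in part. Of 19 listed genes, Prdm1 among them, 15 were tested. In cDC1 2 rose, where 0.814% of all genes did: Socs2, an inhibitor of cytokine signalling, averaged 8.53 in cKO and 6.84 in WT (1.69 ± 0.31, SE; limma adjusted p = 0.00311), and the cyclin Ccnd2 9.21 and 7.90 (1.31 ± 0.27; limma adjusted p = 0.0134). In cDC2 Socs2 averaged 8.83 in cKO and 7.05 in WT (1.77 ± 0.29; limma adjusted p = 0.000914), and the transcription factor Gata3 6.46 and 5.09 (1.37 ± 0.28; limma adjusted p = 0.00668), where 1.16% of genes rose. Tlr7, the receptor for single-stranded RNA, fell to 6.48 in cKO cDC2, against 8.59 in WT cDC2 (−2.11 ± 0.32; limma adjusted p = 0.000368), where 0.403% of genes fell. In pDC none passed, and 1 had an unadjusted p below 0.05 in limma. The medians of the list were 0.08, 0.19 and −0.21 in cDC1, cDC2 and pDC.

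The Ccnd2 call ended without WT cDC1 array 1 (limma adjusted p = 0.0645) or 2 (0.221) or cKO cDC1 array 3 (0.0643), and the Gata3 call without WT cDC2 array 1 (0.0827) or 2 (0.101). Both also ended without the 3 high-Xist arrays (0.101 and 0.108) and in fits to the compared groups alone (0.0702 and 0.0566). T cell markers moved with Gata3. The summed intensity of the 4 of 6 T cell markers with a probe set was 416 to 862 on cKO cDC2 arrays, against 201 to 373 on WT cDC2 arrays, and none of the 4 passed, Cd3g being the nearest (2.06; limma adjusted p = 0.0792). Their part in the Gata3 result was not tested.

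The neighbourhood of the pair was read from the gene order of RefSeq (GRCm38.p6). Within 1 Mb on each side of Bcl6 and Lpp lay 55 genes, of which 19 had a probe set and 9 were tested, Bcl6 and Lpp included. The 9 genes annotated between Bcl6 and Lpp, all long noncoding RNAs or pseudogenes, Gm31527 next to Bcl6 and the antisense transcript Lppos next to Lpp, had no single-gene probe set. On the far side of Bcl6 the next genes with a probe set were Rtp2 and Sst, which encodes somatostatin, and both stayed below the median of every array. Mir28a, a microRNA gene inside Lpp, lay between 3.18 and 4.06 and below the median of every array too.

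Among the 9 tested genes Lpp was the only one to pass between genotypes. Rtp4, which encodes a receptor transporter known as interferon-inducible, was next in cDC1, at 1.10 ± 0.40 (SE; limma adjusted p = 0.609), and had 0.49 ± 0.38 in cDC2 and 0.94 ± 0.38 in pDC (limma adjusted p = 1 for each). St6gal1, a sialyltransferase gene, had 0.60 ± 0.36 in cDC1, and P3h2, a collagen prolyl hydroxylase gene, −0.59 ± 0.30 (limma adjusted p = 1 for each). Eif4a2, Rfc4, C730014E05Rik and BC106179 lay between −0.68 and 0.46 over the 3 cell types. Which strand the Lpp probes read was not examined.

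**Figure D4:**
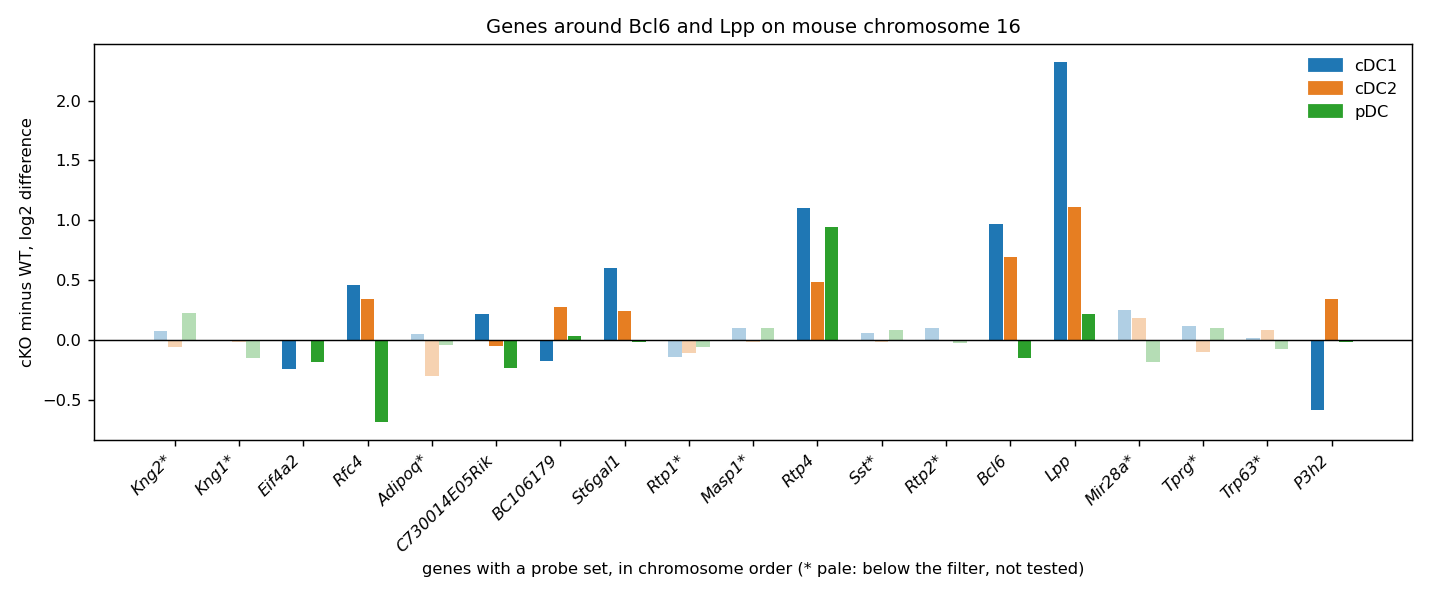
Difference in group mean log2 intensity between cKO and WT (vertical axis) for genes with a probe set around Bcl6 and Lpp, in chromosome order along the horizontal axis, with 1 bar per cell type and pale bars for genes below the filter. Lpp in cDC1, at 2.32, is the 1 difference that passed, and every bar of the genes below the filter lies within 1 of 0.

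For the patterns over all arrays, the genes most like each of 3 members were listed by Pearson's r over the 23 arrays, as a description, since the arrays share cell type, genotype and array set. Most like Bcl6 were Dna2 (0.93), Rab31 (0.93), Atp8b4 (0.92), Arhgap26 (0.92) and Flna (0.92). Most like Lpp were Pilrb1 (0.92), Lamp1 (0.91), Pilrb2 (0.90), Cfp (0.90) and Gbp7 (0.89). Most like Prdm1 were Efnb2 (0.90), Cldn13 (0.90), Flrt3 (0.89), Fabp5 (0.89) and Kel (0.89). The 3 sets of 5 genes share no name.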

How the data were processed

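The authors' deposited intensity values, 1 per probe set and array, came from Affymetrix Expression Console with RMA, per the submitters' processing notes. The sources used here name no version. Since the lowest intensity was 3.785 and the highest 13980.744, the values were read as linear and converted to log2 without rescaling. The pairing table gave a single gene to 21789 of 28853 probe sets. Probe sets exceeding their array's median on 3 arrays or more were kept, and the brightest stood for its gene, leaving 12157 genes. Group means were fitted to all 23 arrays with limma 3.58.1 (lmFit, eBayes) in R 4.3.3, and figures were drawn with matplotlib 3.10.9. Tests were two-sided, Benjamini-Hochberg adjusted over all genes of a contrast, and called below 0.05. The script was tested on simulated data.

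Genes and lists were chosen with earlier results of these data known, by role or map position, and 1 gene is not reported here. Every one of the named genes was reported, with called list members, or the 4 with the highest means where none passed. Ctbp2 and the T cell, macrophage and cDC2 markers were named after their values were seen. Array sets were cut from the medians, at linear intensities of 31.3 and 36. Arrays of the same replicate number were alike between WT cell types and between cKO and WT cDC1 (residual correlations of 0.378 or more), but not throughout any other pair of groups. These pairs also share an array set, so within them number and set cannot be told apart. In the other pairs of groups, arrays of the same number in different sets had residual correlations of −0.297 to −0.031. Those in the same set had −0.051 to 0.681. Over all pairs of arrays the mean residual correlation was 0.484 within a set and −0.284 between sets. With the replicate number as a block, 1348, 2712 and 2584 genes passed between WT cell types, against 736, 1643 and 1548 without. Spread between arrays, whose number is small, limits the precision.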

Additional observations from a re-analysis of the deposited data

Results flagged for a closer look

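Of 24 combinations of probe set and group with 4 or 5 arrays, 3 held an array far from the others, where chance marks about 1 in 20. The combinations share arrays and are not independent, so this count is a description and shows no excess. Prdm1 read 5.36 on cKO pDC replicate 4. Hdac3 read 4.99 on cKO pDC replicate 3. Bcor read 5.51 on cKO cDC2 replicate 3. The last 2 arrays belong to set B.

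The cKO minus WT difference of Lpp was larger in cDC1 than in pDC by 2.10 log2 units in a test of the difference itself (limma adjusted p = 0.0219).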

How the results depend on the processing

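Of 67 differences recomputed, 19 passed, and 12 of these passed under every alternative run for them, including the Lpp rise in cDC1 and the 6 cKO differences between cell types. None of the 19 turned its sign. The genotype count of 1 became 2 with median centring, quantile normalization, 2 or 3 array sets as a term, and without the pDC arrays of set B (an alternative chosen after seeing the data), and 3 with array weights. With 3 array sets as a term 1.74%, 4.6% and 0.214% of all genes passed between genotypes in cDC1, cDC2 and pDC. The WT count of 4 became 9 with 3 array sets as a term and 2 without the high-Xist arrays. That term also raised the WT background, to 15.5% (cDC1 against cDC2), 29.6% (cDC1 against pDC) and 29.1% (cDC2 against pDC). The WT count was 6 with 2 array sets as a term, and 5 with quantile normalization, the probe set mean or the replicate block. Array weights and the fit to the compared groups alone gave 3. The count for genotype effects of 1 became 4 with 3 array sets as a term (all 3 for Lpp, and Prdm1 cDC2 minus pDC at 1.1, limma adjusted p = 0.0444). The background under that term was 1.22% of genes for cDC1 minus cDC2, 0.781% for cDC1 minus pDC and 1.79% for cDC2 minus pDC. The genotype effect count became 0 without the high-Xist arrays, where 5 of 15 had an unadjusted p below 0.05 in limma. With single arrays left out the counts were 1 to 2 (genotype), 2 to 4 (WT), 6 to 7 (cKO) and 0 to 1 (genotype effects, with 3 to 6 of 15 below an unadjusted 0.05 where limma called 0).

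Signs of uncalled differences turned as follows. Without the high-Xist arrays: Bcl6 in pDC 0.084, Bcor in cDC1 0.10, Hdac3 in cDC1 0.12 and in cDC2 0.011, and Prdm1 genotype effect cDC1 minus cDC2 −0.079. With array weights: Bcor in cDC1 0.047, Hdac3 in cDC1 0.14, and Lpp cDC1 minus cDC2 in cKO 0.063, which was 0.052 with the replicate block, 0.23 with the mean of its probe sets, and 0.58 and 0.12 with the other 2. Lpp in pDC was −0.24 with that mean and −0.40 and −0.55 with the other 2. Ranges with single arrays left out were −0.23 to 0.38 for Bcl6 cDC1 minus cDC2 in WT, −0.385 to 0.084 for Bcl6 in pDC, −0.30 to 0.10 for Bcor in cDC1, and −0.18 to 0.14 for Lpp cDC1 minus cDC2 in cKO. For Hdac3 they were −0.28 to 0.12 in cDC1, −0.515 to 0.068 in cDC2 and −0.11 to 0.98 in pDC, −0.083 to 0.47 (cDC1 minus cDC2) and −0.057 to 1.03 (cDC2 minus pDC) in WT, and −0.17 to 0.40 (cDC1 minus pDC) and −0.58 to 0.12 (cDC2 minus pDC) in cKO. For genotype effects they were −0.001 to 0.59 (Bcor), −0.089 to 0.49 (Hdac3) and −0.11 to 0.46 (Prdm1) for cDC1 minus cDC2, and −1.0 to 0.092 (Hdac3) for cDC1 minus pDC. The causes were not tested.

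With the replicate block, the WT Prdm1 call above was the one that changed among WT arrays, where number and array set coincide. Among cKO arrays, where the number did not pair the cell types, Bcor (−0.62, adjusted p = 0.0233) and Prdm1 (0.58, 0.0423) passed for cDC1 minus pDC. Background correction was not redone, since scanner files were not used here.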
